A study of Sus scrofa with 6 samples.

Results

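Postsynaptic scaffold genes encode the proteins that hold glutamate receptors and their signalling partners in place under the synaptic membrane. Their levels were compared between brain tissue of wild boar and of domestic pig, together with the circular RNAs (circRNAs) made from the same genes. The set was a list of 9 genes in 4 families, DLG4 and DLG2, SHANK1, SHANK2 and SHANK3, HOMER1, and DLGAP1, DLGAP2 and DLGAP3. Matching by symbol found 7 of the 9 among the 21280 genes of the deposited gene table, and SHANK1 and SHANK3 were not analysed here. All 7 passed the filter on low values, a TPM of 1 or more in 3 or more libraries. Of the 11375 circRNAs in the deposited circRNA table, 20 lay wholly inside the bounds of a listed gene. HOMER1 held 7 of them, DLGAP1 held 4, DLG2 and DLGAP2 held 3 each, SHANK2 held 2, DLGAP3 held 1 and DLG4 held 0.

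The libraries came from 3 wild boars and from 3 Rongchang pigs, a Chinese domestic breed. All 6 were female and 2 years old, with 1 library per animal, no treatment and no named genetic change. GEO's labels give the tissue as brain for wild boar and as cerebrum for domestic pig, while the title of the series speaks of the prefrontal cortex. The domestic pig libraries came from an earlier deposit and were re-analysed. Breed, source project and labelled tissue split the libraries in the same way, so that their parts in any difference cannot be told apart. P-values measure the spread between these 6 animals only.

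At excitatory synapses the scaffold is built in layers. The DLG proteins, membrane-associated guanylate kinases, sit nearest the membrane and bind the tails of NMDA receptors and, through auxiliary subunits, AMPA receptors. The DLGAP proteins bind the guanylate kinase domain of the DLG proteins and connect them to the SHANK proteins, large scaffolds that reach toward the actin cytoskeleton. HOMER proteins bind SHANK proteins and also metabotropic glutamate receptors and calcium channels of internal stores. HOMER1 makes long forms that link partners and a short form, induced by neuronal activity, that lacks the linking domain. The gene table gave 1 value per gene and did not part these forms. In mouse and human brain HOMER1 is also known as the source of a neuronal circRNA.

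Expression was given in TPM (transcripts per 1000000), a unit that divides by transcript length and so allows levels of different genes to be compared. The TPM of the protein-coding genes in the table summed to between 17.17% and 31.04% of 1000000 in wild boar and between 23.49% and 40.88% in domestic pig, and the depth behind the gene values is not known from TPM. Between-group values are therefore given on the deposited TPM and after rescaling each library by its median ratio to the other libraries. Rescaling moved the median log2 fold change of the 11752 tested genes to 0.07, against -0.41 on deposited TPM. The circRNA table held 33644 to 59343 recovered back-splice reads per wild boar library and 48822 to 73089 per domestic pig library, where a back-splice read is one that crosses the junction closing the loop. Neuronal, astrocyte and oligodendrocyte markers were present in all 6 libraries, as were the cortical transcription factor genes NEUROD2 and TBR1. Domestic pig 3 stood apart most in markers of striatal neurons. All 9 of these markers in the table were highest there, and their summed rescaled TPM was 100.5, against 29.3 to 32.2 in the other 5 libraries, while 14.0% of all tested genes were highest in that library. Other lists with 2 or more members and a share above 14.3% highest there were genes of the inhibitory postsynapse (4 of 8), GABAergic markers (3 of 6), activity-induced genes (5 of 12), neuronal markers (2 of 8), adhesion proteins (3 of 14) and presynaptic genes (2 of 10). The log2 fold changes of HOMER1 and of its main circRNA are given with and without this animal. HOMER1 sums and shares are given library by library.

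The 7 scaffold genes fell into 3 levels. HOMER1 (mean of the 6 libraries 48.5 TPM), DLG2 (45.9 TPM) and DLGAP1 (43.1 TPM) were the most abundant and lay at or above percentile 89.0 of tested genes in every library. Their order among themselves did not hold. HOMER1 was above DLG2 in 3 of 6 libraries, and DLG2 was above DLGAP1 in 4 of 6. DLG4 came next at 26.2 TPM and was below DLGAP1 and above DLGAP3 in 6 of 6 libraries. DLGAP3 (6.71 TPM) and SHANK2 (6.50 TPM) were at a similar level, with DLGAP3 the higher in 4 of 6 libraries. DLGAP2 was the lowest in all 6 libraries, at 3.84 TPM. Thus the DLGAP family spanned the whole range, with DLGAP1 in the top group and DLGAP2 at the bottom.

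**Figure D1:**
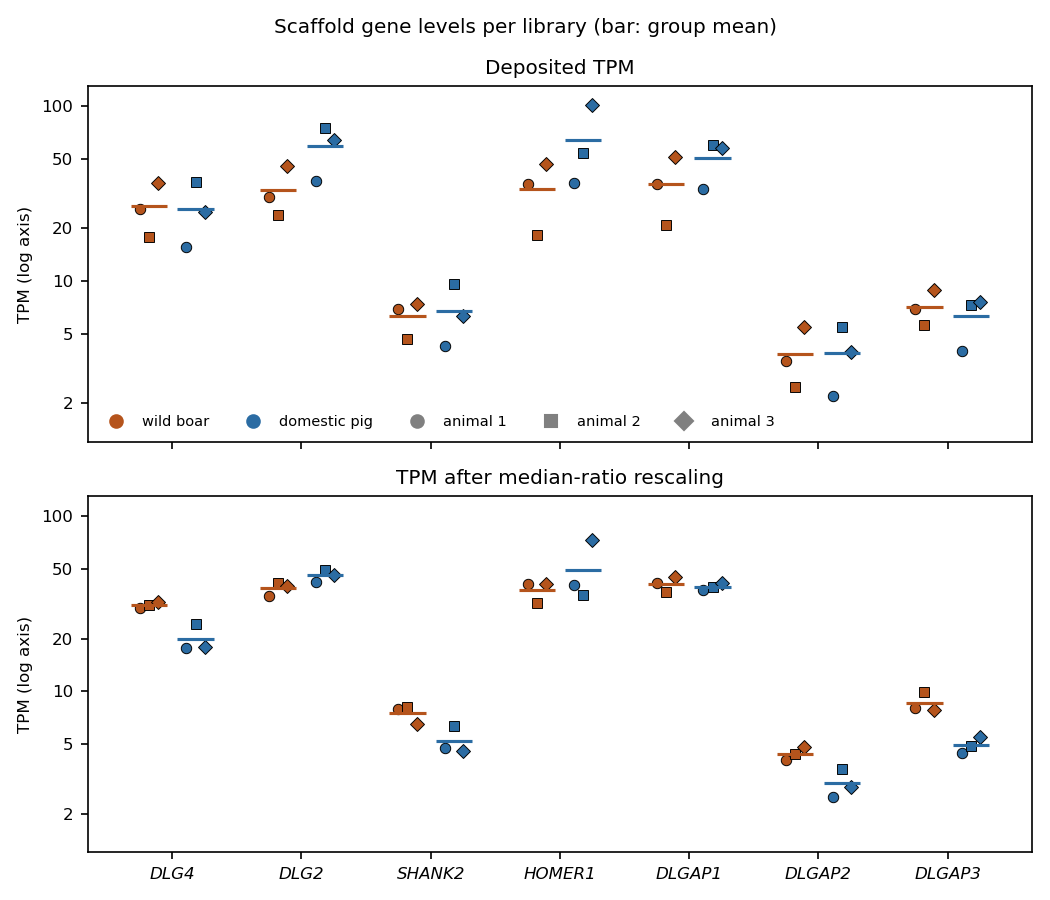
Each point is 1 library, with wild boar in brown to the left and domestic pig in blue to the right of each gene, on a log axis of TPM; bars are group means (n = 3 each). On deposited TPM (top) the groups overlap for all 7 genes. On rescaled TPM (bottom) DLG4, SHANK2, DLGAP2 and DLGAP3 are higher in wild boar without overlap and DLG2 is lower without overlap. Of all tested genes on rescaled TPM, 24.0% are higher and 17.6% lower without overlap. Domestic pig 3 is the highest point of HOMER1 at 72.8.

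On deposited TPM the groups overlapped for all 7 genes and 0 of 7 passed the test, where 1.60% of all tested genes passed, 0.136% higher and 1.46% lower (limma, Benjamini-Hochberg adjusted p under 0.05 over all genes). After rescaling, DLG4, SHANK2, DLGAP2 and DLGAP3 rose in wild boar and DLG2, HOMER1 and DLGAP1 did not pass. That is 4 of 7 genes, all higher, against 11.6% of tested genes called higher and 7.91% called lower in the same fit. The median log2 fold change of the 7 genes was 0.45 on rescaled TPM and -0.04 on deposited TPM, where that of all tested genes was 0.07 and -0.41. The split of calls over all genes depended on the scaling, with 1363 higher and 929 lower here, 1003 and 1359 with quantile scaling, 1043 and 1252 with factors taken over the tested genes, and 503 and 643 with equal protein-coding sums. The members followed in part. DLGAP3 passed under each of these scalings, DLG4 passed under all but equal sums, and SHANK2 and DLGAP2 passed only with the factors used here.

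DLG4 encodes PSD-95, a much studied scaffold of the excitatory synapse. Its deposited TPM was 25.9, 17.8 and 36.4 in the wild boars in the order 1, 2 and 3, against 15.7, 36.7 and 24.7 in the domestic pigs. The groups overlapped and the means, 26.7 ± 9.35 over the wild boars and 25.7 ± 10.5 over the domestic pigs (SD, n = 3 each), differed by less than the spread. After rescaling, DLG4 was at 29.9, 31.3 and 32.2 TPM in wild boar, against 17.7, 24.2 and 17.9 TPM in domestic pig. Every wild boar was then above every domestic pig, which held for 24.0% of all tested genes in this direction and for 17.6% in the other. The log2 fold change on rescaled TPM was 0.63 (SE 0.14, limma, Benjamini-Hochberg adjusted p = 0.0198), against 0.07 (SE 0.42, adjusted p = 0.934) on deposited TPM. The adjusted p on rescaled TPM was 0.0837 with equal sums, 0.0597 without wild boar 2, 0.0639 without wild boar 3, 0.0653 without domestic pig 1 and 0.0534 without domestic pig 3 (limma).

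DLG2, which encodes the related scaffold PSD-93, leaned the other way. Its deposited TPM was 30.2, 23.7 and 45.3 in wild boar, against 37.4, 74.8 and 64.2 in domestic pig, and the groups overlapped at wild boar 3 and domestic pig 1. On rescaled TPM it was at 34.9, 41.7 and 40.0 in wild boar, against 42.0, 49.4 and 46.4 in domestic pig, with no overlap but a gap of less than 1 TPM between wild boar 2 and domestic pig 1. On rescaled TPM the log2 fold change of DLG2 was -0.24 (SE 0.13, adjusted p = 0.203) and on deposited TPM -0.80 (SE 0.42, adjusted p = 0.292), and neither passed (limma, Benjamini-Hochberg). It was below 0 under every scaling tried.

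The other family members DLG1, which encodes SAP97, a scaffold that also traffics receptors, and DLG3, which encodes SAP102, are named for comparison. DLG1 fell in wild boar on rescaled TPM, to 34.2, 29.0 and 32.9 in wild boar, against 52.3, 48.5 and 43.2 in domestic pig, with a log2 fold change of -0.57 (SE 0.13, limma, Benjamini-Hochberg adjusted p = 0.0200). On deposited TPM the value was -1.13 and did not pass (adjusted p = 0.153, limma). DLG3 was at 18.7, 15.9 and 17.6 rescaled TPM in wild boar, against 16.5, 16.5 and 18.6 in domestic pig, and did not pass. DLG4 and DLG1, called in opposite directions in the same fit, were thus the members of this family that moved on rescaled TPM.

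SHANK2, a large scaffold also known as ProSAP1, had a deposited TPM of 6.87, 4.63 and 7.38 in wild boar, against 4.24, 9.56 and 6.30 in domestic pig. The groups overlapped, with wild boar 2 and domestic pig 1 low. On rescaled TPM it was at 7.94, 8.14 and 6.52 in wild boar, against 4.75, 6.32 and 4.55 in domestic pig. The groups no longer overlapped, although wild boar 3 lay close to domestic pig 2. The log2 fold change was 0.46 (SE 0.14, adjusted p = 0.0490) on rescaled TPM, at the edge of the threshold, and -0.04 (SE 0.40, adjusted p = 0.961) on deposited TPM (limma, Benjamini-Hochberg). With factors taken over the tested genes it was 0.41 and the adjusted p was 0.0854 (limma). Leaving out 1 library at a time gave adjusted p-values of 0.0200 to 0.142 (limma), and 5 of these 6 fits did not pass.

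HOMER1 had the widest spread within a group of the 7 genes, relative to its mean, on rescaled TPM. Its deposited TPM was 35.7, 18.2 and 46.3 in wild boar, against 36.2, 53.5 and 101 in domestic pig. Wild boar 2 was the lowest and domestic pig 3 the highest, and the groups overlapped. On rescaled TPM it was at 41.2, 32.0 and 40.9 in wild boar, against 40.6, 35.4 and 72.8 in domestic pig, so that 5 libraries lay between 32.0 and 41.2 and domestic pig 3 stood above them. HOMER1 had a log2 fold change of -0.31 (SE 0.25, adjusted p = 0.389) on rescaled and -0.88 (SE 0.42, adjusted p = 0.261) on deposited TPM (limma, Benjamini-Hochberg). Without domestic pig 3 it was -0.00 on rescaled and -0.49 on deposited TPM. HOMER2 and HOMER3, its paralogs, were at 6.31 to 6.89 and 5.01 to 5.80 rescaled TPM in wild boar and at 6.18 to 6.62 and 3.80 to 5.44 in domestic pig, and neither passed the test.

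Of the DLGAP family, DLGAP3 gave the call that held most widely. DLGAP3, also named SAPAP3, is known from mouse as a scaffold of corticostriatal synapses whose loss causes excessive grooming. Its deposited TPM was 6.94, 5.63 and 8.82 in wild boar, against 3.97, 7.32 and 7.59 in domestic pig, with overlap. On rescaled TPM it was at 8.01, 9.90 and 7.79 in wild boar, against 4.45, 4.84 and 5.48 in domestic pig, and the groups did not overlap. The log2 fold change was 0.69 (SE 0.13, limma, Benjamini-Hochberg adjusted p = 0.0113), a 1.61-fold difference on the TPM + 1 scale. It was 0.18 (SE 0.40, adjusted p = 0.807) on deposited TPM. On rescaled TPM the call held under every alternative and with any 1 library left out, with adjusted p-values up to 0.0412 (limma).

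DLGAP1, also called GKAP, did not differ beyond its spread under either scaling. It was at 41.6, 36.7 and 45.2 rescaled TPM in wild boar, against 37.7, 39.3 and 41.4 in domestic pig, and the groups were interleaved. Its log2 fold change was 0.05 (SE 0.12, adjusted p = 0.773) on rescaled and -0.51 (SE 0.42, adjusted p = 0.493) on deposited TPM (limma, Benjamini-Hochberg), and it turned to -0.07 with quantile scaling, -0.03 with equal sums and -0.01 with factors over the tested genes. DLGAP2 was at 4.04, 4.36 and 4.83 rescaled TPM in wild boar, against 2.48, 3.61 and 2.85 in domestic pig, with no overlap. Its log2 fold change was 0.45 (SE 0.13, adjusted p = 0.0438) on rescaled and -0.01 (SE 0.36, adjusted p = 0.994) on deposited TPM (limma, Benjamini-Hochberg), and the adjusted p was 0.0724 with factors over the tested genes. Leaving out 1 library at a time gave adjusted p-values of 0.0200 to 0.130 (limma), and 5 of these 6 fits did not pass. The paralog DLGAP4 leaned the same way, with 6.23, 7.08 and 7.53 rescaled TPM in wild boar, against 2.76, 6.10 and 4.47 in domestic pig, but did not pass (adjusted p = 0.0758, limma).

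**Figure D2:**
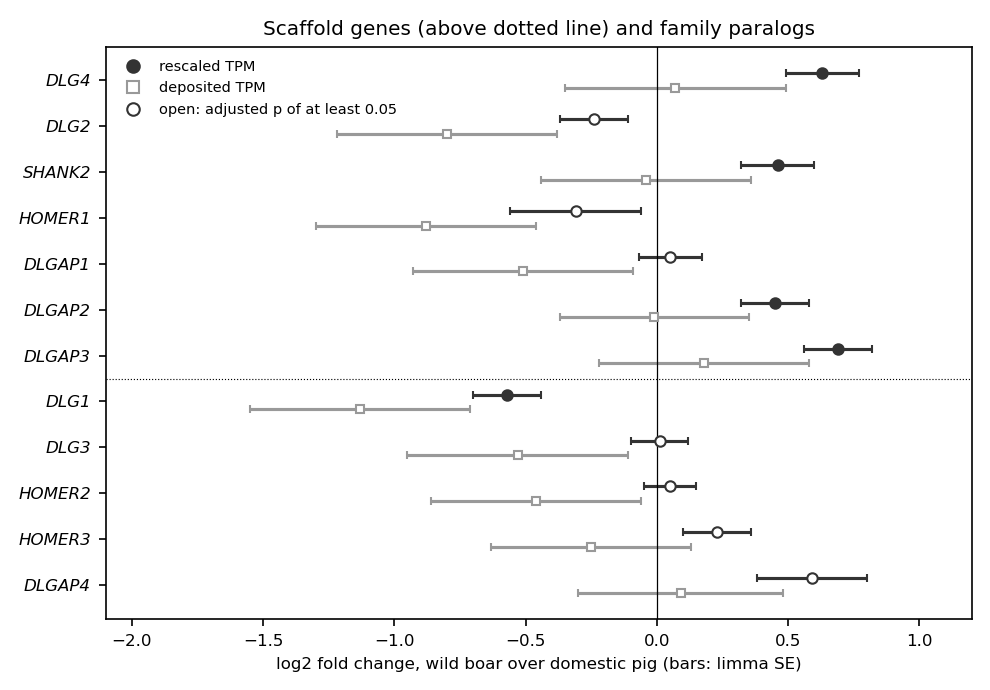
The horizontal axis is the log2 fold change of wild boar over domestic pig with the limma standard error, for the 7 scaffold genes above the dotted line and 5 paralogs below it (n = 3 each). Filled dark circles, rescaled TPM with adjusted p under 0.05, are DLG4 (0.63), SHANK2 (0.46), DLGAP2 (0.45), DLGAP3 (0.69) and DLG1 (-0.57), while on deposited TPM (grey squares) all symbols are open.

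Ratios of 2 genes within a library do not depend on the scaling. The ratio of DLG4 to DLG2 was 0.855, 0.749 and 0.805 in wild boar, against 0.421, 0.490 and 0.385 in domestic pig. All wild boars were above all domestic pigs, with a difference of 0.90 on the log2 scale (exact two-sided permutation test, p = 0.1, the smallest that 3 against 3 allows, and 0.233 adjusted over 21 pairs). The ratio of DLG2 to DLGAP3 was 4.36, 4.21 and 5.13 in wild boar, against 9.43, 10.2 and 8.46 in domestic pig, and that of DLG2 to SHANK2 was 4.40, 5.12 and 6.13 in wild boar, against 8.83, 7.82 and 10.2 in domestic pig. Of the 21 pairs of scaffold genes, 9 did not overlap between the groups. Among all pairs of tested genes 39.7% did not overlap, so the count over the scaffold genes was near the background. Pairs within the group of DLG4, SHANK2, DLGAP2 and DLGAP3 overlapped in each case, for example SHANK2 to DLGAP2 at 1.96, 1.87 and 1.35 in wild boar, against 1.92, 1.75 and 1.60 in domestic pig. The ratio of DLG4 to its paralog DLG1 was 0.873, 1.08 and 0.978 in wild boar, against 0.338, 0.500 and 0.414 in domestic pig. That difference of 1.24 on the log2 scale was larger than for any pair among the 7 genes (exact permutation p = 0.1, adjusted over 6 ratios 0.300).

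Summed by family, the deposited TPM overlapped between the groups in all 4 families. As shares of the summed scaffold TPM, the DLG pair took 38.7%, 44.5% and 40.7% in wild boar, against 39.9%, 45.2% and 33.6% in domestic pig. The DLGAP genes took 32.0%, 31.0% and 32.6% in wild boar, against 29.8%, 29.3% and 26.0% in domestic pig. The DLGAP share was thus higher in each wild boar, by 3.52 percentage points on average (exact permutation p = 0.1, adjusted over 4 families 0.400). HOMER1 took 24.6%, 19.5% and 23.1% in wild boar, against 27.1%, 21.7% and 38.1% in domestic pig, with the highest share in domestic pig 3. SHANK2 took 2.38% to 4.96% over the 6 libraries.

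The 20 circRNAs of the scaffold genes were made of 1072 recovered back-splice reads in all, and HOMER1 gave 643 of them, or 60.0%. Positions are those of the deposited table, counted from 1, on a genome build that is not given in the sources used here. All 7 HOMER1 circRNAs lay on the minus strand of chromosome 2 and shared splice ends. Of these, 4 began at base 88144038. They ended at 88147594 (ssc_circ_2564, 349 nt spliced length), 88184249 (ssc_circ_2565, 489 nt), 88196830 (ssc_circ_2566, 582 nt) and 88206327 (ssc_circ_2567, 871 nt). A further 2 also ended at 88206327, ssc_circ_2568 from 88184110 (522 nt) and ssc_circ_2569 from 88196738 (382 nt). The last, ssc_circ_9578, shared its start with ssc_circ_2568 and ended at 88201577 (365 nt).

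The spliced lengths, recovered from the deposited TPM, added up across these loops. They are the lengths by which the submitters' TPM were divided, and how those were obtained is not given. If they were taken from annotated exons, loops that share ends add up by construction. The sums therefore do not show which exons the loops hold. The 349 nt of ssc_circ_2564 and the 522 nt of ssc_circ_2568, which lie side by side within ssc_circ_2567, summed to its 871 nt. The 489 nt of ssc_circ_2565 and the 382 nt of ssc_circ_2569 also summed to 871 nt. ssc_circ_2568 exceeded ssc_circ_2569 by 140 nt at its start, and ssc_circ_2565 exceeded ssc_circ_2564 by the same 140 nt at its end. The same held in DLGAP2, where ssc_circ_4840 (283 nt) and ssc_circ_4842 (368 nt) summed to the 651 nt of ssc_circ_4841. The exon structure itself was not read from an annotation.

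**Figure D3:**
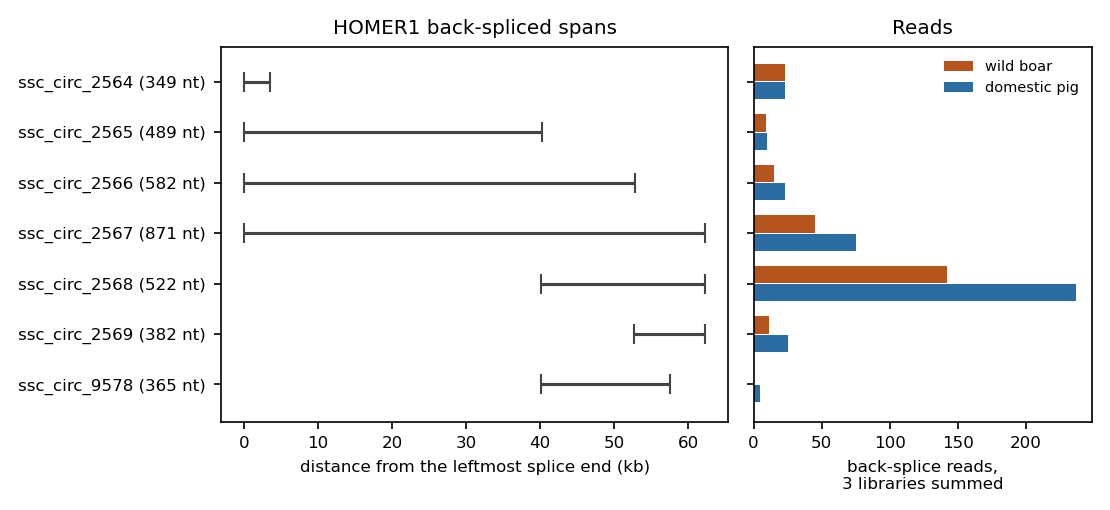
On the left, each line is the genomic span of 1 HOMER1 circRNA in kb from the leftmost splice end, with its spliced length; on the right, bars are recovered back-splice reads summed over 3 libraries, wild boar above domestic pig. ssc_circ_2568 has the most reads, 142 in wild boar, against 237 in domestic pig, followed by ssc_circ_2567 with 45 and 75. Reads are not scaled for the depth of the libraries, and 150 of the 237 are from domestic pig 3.

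ssc_circ_2568 was the main circRNA of HOMER1 and ranked 97 of 11375 circRNAs by mean TPM. It had 39, 76 and 27 reads in wild boar, against 59, 28 and 150 reads in domestic pig, or 1.86, 2.25 and 1.58 TPM in wild boar, against 2.19, 1.55 and 6.78 TPM in domestic pig. Apart from domestic pig 3 the libraries were interleaved. Its log2 fold change was -0.59 (SE 0.42, limma, Benjamini-Hochberg adjusted p = 0.533) and 0.02 without domestic pig 3. The circRNA took 57.4%, 69.1% and 40.3% of the HOMER1 back-splice reads in wild boar, against 47.6%, 50.9% and 68.5% in domestic pig. These shares overlapped and did not differ beyond their spread (exact permutation p = 1.00).

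The other HOMER1 circRNAs were lower. The outermost loop, ssc_circ_2567, had 10, 17 and 18 reads in wild boar, against 29, 12 and 34 in domestic pig. Its log2 fold change was -0.65 (SE 0.47, limma adjusted p = 0.542). ssc_circ_2564, the shortest by span, had 8, 5 and 10 reads in wild boar, against 9, 2 and 12 in domestic pig. ssc_circ_2569 had 4, 6 and 1 reads in wild boar, against 12, 3 and 10 in domestic pig. Its unadjusted p of 0.0559 was the lowest of any scaffold circRNA, and its adjusted p was 0.358 (limma). ssc_circ_2565 and ssc_circ_2566 had 9 and 15 reads over the 3 wild boars and 10 and 23 over the 3 domestic pigs. ssc_circ_9578 had 0 reads in the wild boars and 5 in the domestic pigs, all in domestic pig 2 and 3. A count of 0 allows up to 3 reads in a library, so this difference was not detectable at this depth.

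Summed over its 7 circRNAs, HOMER1 had 3.28, 3.19 and 3.78 circRNA TPM in wild boar, against 4.46, 2.93 and 9.75 in domestic pig. It ranked 92 of 3390 host genes by this sum. As a share of all back-splice reads it took 0.179%, 0.185% and 0.199% in wild boar, against 0.174%, 0.113% and 0.300% in domestic pig. The wild boar values lay inside the range of the domestic pigs (exact permutation p = 1.00).

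Of the 20 circRNAs, 18 were above 0 in at least 3 libraries and were tested. By limma with Benjamini-Hochberg adjustment 0 of 18 passed, 0 had an unadjusted p under 0.05 and 0 had groups that did not overlap, where 0.134% of the 9709 tested circRNAs passed, 1408 had an unadjusted p under 0.05 and 18.2% were lower and 2.46% higher without overlap. Their median log2 fold change was -0.52 and that of all tested circRNAs was -0.45. With so few reads per library, a p that missed the threshold does not show that levels were alike. The main circRNAs of SHANK2, ssc_circ_2323 with 14, 21 and 5 reads in wild boar, against 16, 18 and 13 in domestic pig and ssc_circ_2322 with 3, 8 and 5 in wild boar, against 8, 9 and 5 in domestic pig, overlapped between the groups, with log2 fold changes of -0.47 and -0.54 that did not pass (limma). In DLGAP2, ssc_circ_4842 had 8, 19 and 7 reads in wild boar, against 14, 9 and 11 in domestic pig, and ssc_circ_4840 had 4, 11 and 2 in wild boar, against 3, 1 and 14 in domestic pig. In DLGAP1, ssc_circ_352 had 9, 9 and 4 reads in wild boar, against 10, 4 and 16 in domestic pig. The largest loops of DLG2 by level, ssc_circ_7792 (0, 4 and 4 reads in wild boar, 6, 2 and 3 in domestic pig) and ssc_circ_7790 (2, 2 and 2 in wild boar, 3, 0 and 9 in domestic pig), and the only loop of DLGAP3, ssc_circ_271 (3, 2 and 0 in wild boar, 2, 3 and 3 in domestic pig), rested on 13 to 19 reads each.

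Gene level and circRNA level did not run together across the scaffold genes. HOMER1, DLG2 and DLGAP1 had similar gene TPM. Yet for 100 gene TPM HOMER1 had 10.4 circRNA TPM (mean of the 6 libraries), DLG2 had 1.76 and DLGAP1 had 1.78. Gene and circRNA TPM are unlike measures, so the ratio is not a share of transcripts. circRNA TPM divides back-splice reads by the spliced length, and a read weighs more in a shorter loop. DLG2 and DLGAP1, with like ratios, had 44 and 92 back-splice reads. The low-abundance genes DLGAP2 and SHANK2 had the most circRNA for their gene level, 42.3 and 20.7 per 100 gene TPM. DLGAP3, at a gene level like that of SHANK2, went the other way with 2.82, below the median host, and had no circRNA read in wild boar 3, so it was not among the hosts tested. DLGAP2 thus lay at percentile 95.7 of the 1920 host genes tested, SHANK2 at 86.2, HOMER1 at 69.6, DLGAP1 at 19.7 and DLG2 at 19.5. The median host had 5.36 per 100 gene TPM. These percentiles are not matched for gene level. Only hosts with circRNA reads in all 6 libraries entered, so that hosts of low gene TPM enter only with a high enough ratio. DLG4, at a mean of 26.2 TPM, had 0 circRNAs in the table. DLG1, the paralog, had 21 circRNAs and 11.4 circRNA TPM per 100 gene TPM, close to HOMER1. DLG3, HOMER2 and HOMER3 had 0, and the table listed 0 circRNAs on the X chromosome, where DLG3 lies.

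**Figure D4:**
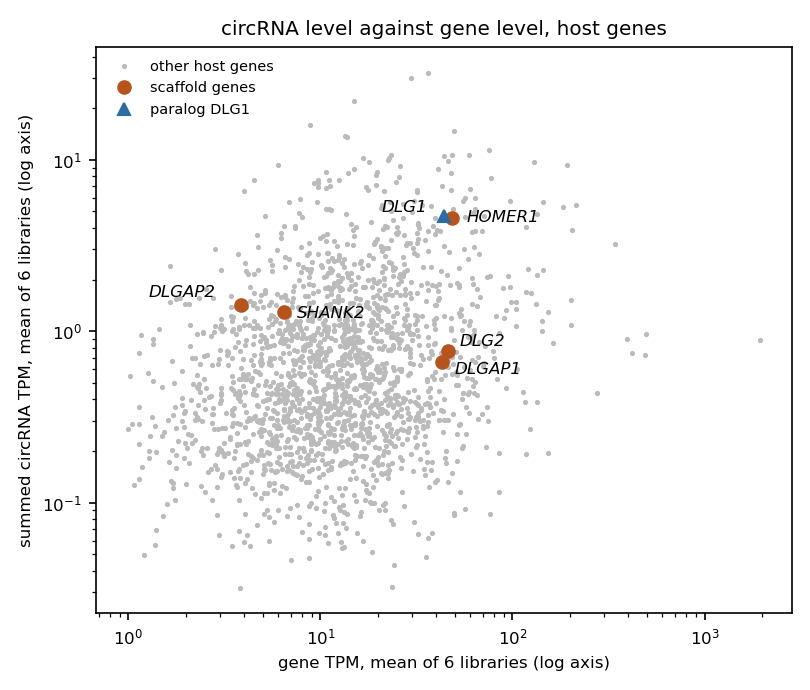
Each point is a host gene with its mean gene TPM (horizontal) and the mean summed TPM of its circRNAs (vertical) over 6 libraries, both on log axes, for hosts with circRNAs in all 6. HOMER1 lies above DLG2 and DLGAP1 at a like gene level, DLGAP2 and SHANK2 reach over 1 circRNA TPM at a gene TPM under 7, and the paralog DLG1 lies beside HOMER1.

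Between the groups, the circRNA to gene ratio of HOMER1 was 9.21, 17.5 and 8.16 per 100 gene TPM in wild boar, against 12.3, 5.47 and 9.67 in domestic pig. Wild boar 2, with the lowest gene TPM, had the highest ratio, and domestic pig 3 had a ratio within the range of the others. Unlike a ratio of 2 genes, this ratio depends on the scaling of gene and circRNA TPM. The log2 median-ratio factor of wild boar 2 was -0.81 for genes and -0.39 for circRNAs. DLGAP1, DLGAP2 and DLG1 also had their highest ratio in wild boar 2, while DLG2, SHANK2 and DLGAP3 did not. The log2 fold change of the HOMER1 ratio was 0.32 (SE 0.50, limma, Benjamini-Hochberg adjusted p = 0.960), and it was -0.01 without wild boar 2. DLGAP2 had ratios of 34.2, 65.8 and 18.0 in wild boar, against 56.2, 21.3 and 58.4 in domestic pig, and SHANK2 had 15.8, 25.8 and 12.1 in wild boar, against 30.1, 22.4 and 18.0 in domestic pig. All 5 members tested overlapped between the groups and 0 of 5 passed, with adjusted p-values of 0.941 to 0.994 (limma), where 0.0521% of 1920 hosts passed and 6.98% were higher and 3.39% lower without overlap. DLG1 had a lower circRNA sum in wild boar, 2.57, 2.66 and 3.72 TPM, against 6.56, 6.13 and 6.59 TPM in domestic pig, but its ratio was 8.67, 16.1 and 9.99 in wild boar, against 14.1, 8.36 and 11.0 in domestic pig and overlapped.

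Domestic pig 3 was the library in which HOMER1 gene and circRNA were both high. HOMER1 was at 72.8 rescaled TPM there and at 32.0 to 41.2 in the other 5 libraries. ssc_circ_2568 was at 6.78 deposited TPM there and at 1.55 to 2.25 in the others. The median-ratio factor of all circRNAs was also highest there, at 1.44, against 0.76 to 1.21 in the others. The gap for ssc_circ_2568 would thus be smaller after rescaling. Of the 7 genes only HOMER1 was highest in domestic pig 3 on rescaled TPM. That is 14.3%, near the 14.0% of all tested genes. Of the 20 scaffold circRNAs, 9 were highest there, which is 45.0%, against 33.1% of all circRNAs. The striatal marker PPP1R1B, which encodes DARPP-32, was at 29.9 rescaled TPM in domestic pig 3 and at 4.91 to 9.29 in the others, and PENK, which encodes proenkephalin, was at 15.3 there and at 1.67 to 3.27 in the others. DRD2, below the filter on low values, was at 0.370 rescaled TPM in domestic pig 3 and at 0 to 0.0183 in the others. Activity-induced genes summed to 60.9 rescaled TPM in domestic pig 3, within the range of 39.1 to 78.0 over the other 5 libraries, where the highest sum, in wild boar 1, held DUSP1 at 28.0. Of these 12 genes 5, or 41.7%, were highest in domestic pig 3, against 14.0% of all tested genes, among them ARC at 10.6 and BDNF at 6.05. The part of striatal neurons or of activity-induced genes in the HOMER1 values was not tested.

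**Figure D5:**
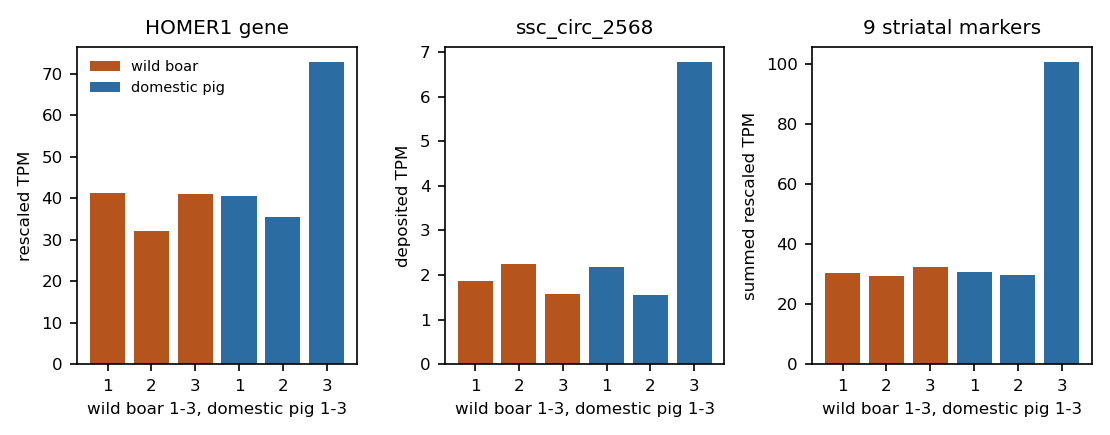
Bars are single libraries, wild boar 1 to 3 on the left and domestic pig 1 to 3 on the right, for HOMER1 gene (rescaled TPM), its main circRNA ssc_circ_2568 (deposited TPM) and the sum of 9 striatal neuron markers (rescaled TPM). In all 3 panels domestic pig 3 is the highest bar, at 72.8, 6.78 and 100.5.

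Partners of the scaffold at the synapse were read from lists of the receptors and proteins that bind it, with calls from the same fits. On deposited TPM 0 genes of these lists passed, other than NPAS4 and NR4A3 among the activity-induced genes, which were lower in wild boar. On rescaled TPM the counts of each list stand against 11.6% of all tested genes called higher and 7.91% called lower. A single call in 8 to 14 genes is near that background. Calls of paralogs, list genes and markers are not given under the other scalings, under which SHANK2 and DLGAP2 did not pass. Of 4 NMDA receptor subunits 1 rose in wild boar. This was GRIN1, the subunit that all NMDA receptors share, at 25.6, 26.5 and 27.3 TPM in wild boar, against 10.1, 15.7 and 10.4 TPM in domestic pig (log2 fold change 1.10, SE 0.16, limma adjusted p = 0.00669). GRIN2A and GRIN2B, which carry the tails that DLG proteins bind, had values of 0.16 and 0.10 and did not pass. Of 9 AMPA and kainate receptor subunits GRIK5 rose (0.80, limma adjusted p = 0.0346). The other 8 did not pass, with GRIA2 at -0.35 and GRIA1 at 0.08. Among 10 AMPA receptor auxiliary and trafficking proteins NSF rose (0.54, limma adjusted p = 0.0443). CACNG2 (stargazin), which links AMPA receptors to DLG4, was at 0.32 and did not pass.

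Against the same shares of 11.6% higher and 7.91% lower over all tested genes, most of the following counts are near the background. Among the 8 tested partners of HOMER proteins, AGAP2 rose (0.83). The ryanodine receptor gene RYR2, a calcium release channel, fell (-0.46, limma adjusted p = 0.0435). GRM5, the metabotropic receptor that binds HOMER1, was at 0.06 and did not pass. Of 14 postsynaptic enzymes and regulators, 5 rose, AGAP2 again among them, and 1 fell on rescaled TPM. The 5 included CAMK2A (0.92) and CAMK2B (0.76), the subunits of the main kinase of the postsynaptic density, while TNIK fell (-0.52). Of 8 actin-linked spine proteins SYNPO (1.00) and BAIAP2 (0.76), which binds SHANK proteins, rose. Of 14 adhesion proteins ADGRB1 (0.80) and LRFN1 (0.54) rose and NLGN1 (-0.54), a neuroligin that binds DLG4, fell. Of 8 genes of the inhibitory postsynapse LHFPL4 (0.36, limma adjusted p = 0.0421) rose. Among genes of the presynaptic active zone BSN (1.01) rose and PPFIA2 (-0.48) fell. Of 10 activity-induced genes EGR3 (0.57) rose on rescaled TPM.

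Some markers of cell types were also called in the same fits. On rescaled TPM, where 11.6% of all tested genes were called higher and 7.91% lower, 3 of 6 markers of glutamatergic neurons rose. CAMK2A, counted above among the postsynaptic enzymes, is 1 of these 3. Their summed TPM was 194 to 227 in wild boar and 111 to 156 in domestic pig. Of the neuronal markers 2 of 8 rose (sums 1715 to 2059 in wild boar and 1583 to 2066 in domestic pig), and of GABAergic markers 0 of 6 passed (213 to 255 in wild boar, 165 to 254 in domestic pig). Endothelial markers had 1 of 4 higher (22.2 to 34.7 in wild boar, 13.8 to 15.5 in domestic pig), mural or fibroblast markers 2 of 6 (34.2 to 70.0 in wild boar, 20.7 to 30.1 in domestic pig) and microglial markers 1 of 6 (37.0 to 78.7 in wild boar, 45.3 to 58.0 in domestic pig). Of 6 astrocyte, 5 oligodendrocyte and 6 striatal markers tested, 0 passed on rescaled TPM, and on deposited TPM the striatal marker PENK fell (-1.33, limma adjusted p = 0.0188). The part of these cell types in the scaffold calls was not tested, and in bulk tissue fewer cells of a type and less RNA per cell cannot be told apart.

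The genes whose rescaled values followed HOMER1 most closely over the 6 libraries, by the root mean square difference of centred log2 values, were SCG2 (0.12), CFAP95 (0.15) and LIN7A (0.15), out of 6466 candidates, where the SD of HOMER1 itself was 0.40. SCG2 was at 60.9, 47.6 and 61.9 TPM in wild boar, against 55.4, 45.8 and 87.5 TPM in domestic pig, also highest in domestic pig 3. For DLG4, with an SD of 0.38, they were MYH9 (0.0386), SREBF2 (0.0399) and TTBK1 (0.0424). MYH9 was at 16.4, 18.3 and 17.8 TPM in wild boar, against 9.93, 14.1 and 9.64 TPM in domestic pig, with domestic pig 2 the highest of its group as for DLG4.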

How the data were processed

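Trizol RNA was depleted of ribosomal RNA and made into stranded libraries, per the labels' protocols. STAR 2.6.0c and BWA 0.7.17 are listed, with no roles, in the submitters' processing notes. Build, annotation, strand setting and the caller of circRNAs are not given in the sources used here. As tables, the authors deposited TPM per protein-coding gene and TPM per circRNA, 1 column per library, with 0 sample columns unused. The 9 members and all lists were chosen with earlier results of these data known.

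Gene identifiers were matched to symbols (14821 of 21280), and circRNAs to hosts by position in the Sscrofa11.1 RefSeq gene table, without its coordinates being printed; 97.35% were inside a gene (39.38% when shifted by 1000000 bases). The deposited circRNA TPM of all 11375 circRNAs were whole numbers of reads times a library factor over a length, within a relative tolerance of 2e-06. The smallest whole reads and length that gave 3 or more reads in 1 library were taken; 316 were raised to reach it, and a simulation of 2000 was recovered exactly in 97.8%. A count of 0 allows up to 3 reads, 0.0041% to 0.00892% of a library, for counting error only.

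Genes with a TPM of 1 or more in 3 or more libraries were tested on log2(TPM + 1), circRNAs above 0 in at least 3 on log2(TPM + 0.045), and hosts with circRNAs in all 6 on log2 of the summed circRNA TPM + 0.045 over the gene TPM + 1. Tests were limma 3.58.1 with a mean-variance trend (R 4.3.3), two-sided, Benjamini-Hochberg adjusted over all features, threshold 0.05. Rescaling used median ratios over genes above 0 in all 6 libraries, with log2 factors of -0.21, -0.81 and 0.18 for wild boar and -0.17, 0.60 and 0.47 for domestic pig. Fold changes on these scales understate changes of low values, and on deposited TPM the standard error is pooled over genes of like level. Ratios, shares and sums were compared by an exact permutation test, two-sided, with 0.1 the smallest p. On simulated data the circRNA fit found none of the differences placed in it, the ratio fit only the larger ones and the deposited gene fit few of the smaller ones, so a miss in these fits does not show that levels were alike.

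Named genes were all members found, all HOMER1 circRNAs, the 2 circRNAs of highest mean TPM of other members, 5 paralogs, up to 4 genes of lowest p per list, and the 3 genes of most similar pattern to HOMER1 and DLG4. GRIA1, GRIA2, CACNG2, GRM5, ARC, BDNF, PPP1R1B and DRD2 were named after their values were seen. A few genes of the lists are not reported here. Alternatives were other pseudocounts, filters, scalings, variance models and left-out libraries. Factors over the tested genes and shares of back-splice reads were added after seeing the data.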

Additional observations from a re-analysis of the deposited data

How the results depend on the processing

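Of 473 values recomputed under an alternative, 367 kept their direction and side of the threshold or stayed within 1.5 times of a count, 26 kept their direction but no longer passed, 51 turned sign and 29 counts moved further. Over all genes on deposited TPM, 188 passed, against 6 with no filter, 285 with no mean-variance trend and 58 to 665 with 1 library left out, highest without domestic pig 1. On rescaled TPM 2292 passed, against 1146 with equal protein-coding sums and 822 to 2232 with 1 library left out, lowest without wild boar 2. For circRNAs 13 passed, against 22 with shares of back-splice reads, 26 with a pseudocount of 0.1, 6 with circRNAs above 0 in at least 1 library, 2 with median-ratio scaling, 1 with no trend and 0 to 1 with a library left out. For the circRNA to gene ratio 1 host passed, against 0 with no trend and 1 to 3 with a library left out, highest without domestic pig 3. Replicate numbers did not pair the samples, which came from different animals, and deviations of same-numbered samples correlated at -0.16 to 0.11, with at most 3 of 6 samples closest to their own number. The replicate block gave 70, 1294, 21 and 1 calls in the 4 fits.

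Log2 fold changes whose sign turned with 1 library left out, none of them past the threshold, ranged as follows. On deposited TPM they were -0.23 to 0.36 for DLG4, -0.29 to 0.22 for SHANK2, -0.28 to 0.23 for DLGAP2 and -0.08 to 0.32 for DLGAP3, and on rescaled TPM -0.01 to 0.13 for DLGAP1. DLGAP1 was also -0.07 with quantile scaling, -0.03 with equal sums and -0.01 with factors over the tested genes. For circRNAs they were -1.02 to 0.02 for ssc_circ_2568, -0.36 to 0.70 for ssc_circ_2564, -0.57 to 0.98 for ssc_circ_2565, -0.94 to 0.09 for ssc_circ_2566, -1.90 to 0.14 for ssc_circ_7792, -1.12 to 1.02 for ssc_circ_7790, -0.72 to 0.05 for ssc_circ_352 and -0.44 to 1.08 for ssc_circ_4840. With shares of back-splice reads and with median-ratio scaling, ssc_circ_352 turned to 0.22 and 0.19, ssc_circ_4842 to 0.42 and 0.39, ssc_circ_2323 to 0.13 and 0.09 and ssc_circ_2322 to 0.04 and 0.01. ssc_circ_2568 turned to 0.03 with shares of reads, and ssc_circ_7790 to -0.15 with a pseudocount of 0.1. For the ratio they were -0.50 to 0.46 for DLG2, -0.01 to 0.57 for HOMER1, -0.47 to 0.65 for DLGAP1 and -0.66 to 0.15 for DLGAP2, and DLG2 was 0.03 with a pseudocount of 0.1. The wild boar minus domestic pig difference ranged from -6.84 to 7.56 percentage points for the ssc_circ_2568 share of HOMER1 reads, from -0.0492 to 0.0443 for the HOMER1 percentage of back-splice reads and from -0.913 to 3.55 for ssc_circ_2568 TPM per 100 gene TPM. Apart from fewer samples or features in a fit, the cause was not tested. With 2 libraries in a group, the spread of both groups is taken as equal.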
